A study of Mus musculus with 8 samples.

Results

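The Marchf genes encode membrane-associated RING-CH ubiquitin ligases, and 10 of them (Marchf1 to Marchf9 and Marchf11) were followed among the 41079 genes counted in the mouse organ of Corti, which holds the hearing receptor cells. The members were taken from the count tables by symbol. The family was selected on the measured difference of Marchf4 between the genotypes, where it was among the genes called lower (Benjamini-Hochberg adjusted p under 0.05 over all tested genes), so the values of Marchf4 in that contrast are given as a description and without a test. The other 9 members entered by family name. Marchf10, the remaining family gene in the tables, is not on the list of members, and it had 4 to 16 counts per library and did not pass the low-count filter (edgeR, a minimum count of about 10 in 4 libraries).

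Total RNA of micro-dissected organ of Corti at P0, the day of birth, was sequenced after removal of ribosomal RNA in 8 libraries. The 4 wildtype libraries were set against 4 libraries labelled as a conditional Prox1 knockout, in which Cre driven from Emx2 acts on floxed Prox1. Whether the wildtype animals carried Cre or floxed alleles, and whether each library came from its own animal, is not given in the sources used here. Hence p-values measure the spread between these libraries, which may be technical. The comparison asks which genes differ when Prox1, a transcription factor of developing supporting cells, is deleted.

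RING-CH ligases hold zinc through cysteine and histidine residues in a short domain that receives ubiquitin-loaded E2 enzymes, and most of them span a membrane. They mark other membrane proteins for removal from the surface, for sorting to lysosomes or for degradation at the endoplasmic reticulum (ER). Marchf4, Marchf9 and Marchf11 act at the Golgi and in post-Golgi sorting, and Marchf4 and Marchf9 are known for lowering MHC class I and CD4 at the surface. Marchf1 and Marchf8 target MHC class II, CD86 and the transferrin receptor, the former mainly in antigen-presenting cells and the latter broadly. Marchf2 and Marchf3 act in endosomal traffic, Marchf5 sits in the outer mitochondrial membrane, Marchf6 sits in the ER, and Marchf7 (axotrophin) lacks membrane-spanning segments.

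The gene of Marchf4 (ENSMUSG00000039372.5) lies at chr1:72427112-72536930 on the minus strand in the GENCODE M21 annotation of GRCm38. This build is older than GRCm39, which the submitters' processing notes name, and its positions serve here only to describe the genes. Within the coding sequence, the stretch for the RING-CH domain was found as the letters between the outermost zinc-binding cysteines, and all 10 members held the full pattern of 8 such residues. In Marchf2 the pattern can also begin at a later cysteine. The stretch used for it, of 147 bases, took the earlier start and may be longer than the domain. The stretches of Marchf4, its closest relatives Marchf9 and Marchf11, and the more distant Marchf8 are shown because the results turn on how Marchf4 differed from such similar genes. Each is printed 5′ to 3′ on the coding strand with the 8 zinc-binding codons in capitals. They span, introns included, chr1:72452490-72534654 for Marchf4, chr10:127058268-127059427 for Marchf9, chr15:26309763-26311078 for Marchf11 and chr6:116402178-116403555 for Marchf8. The first pair lies on the minus strand and the other pair on the plus strand.
Marchf4: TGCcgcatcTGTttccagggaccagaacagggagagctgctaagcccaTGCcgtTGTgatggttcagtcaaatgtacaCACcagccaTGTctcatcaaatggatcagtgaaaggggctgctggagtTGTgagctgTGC
Marchf9: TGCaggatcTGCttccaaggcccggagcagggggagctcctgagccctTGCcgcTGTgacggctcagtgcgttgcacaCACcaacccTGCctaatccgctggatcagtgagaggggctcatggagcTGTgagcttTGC
Marchf11: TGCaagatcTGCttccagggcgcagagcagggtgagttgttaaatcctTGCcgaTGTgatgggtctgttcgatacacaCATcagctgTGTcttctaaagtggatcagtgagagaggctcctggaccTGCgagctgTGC
Marchf8: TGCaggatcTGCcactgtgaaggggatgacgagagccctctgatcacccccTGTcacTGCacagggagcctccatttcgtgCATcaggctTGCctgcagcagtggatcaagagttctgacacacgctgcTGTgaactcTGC

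Over these stretches Marchf4 and Marchf9 shared 107 of 138 bases (77.5%), and Marchf4 and Marchf11 shared 104 of 138 (75.4%). The stretch of Marchf8 is 141 bases long, and 51.7% of the 143 aligned positions matched Marchf4. The closest pair of the family was Marchf1 with Marchf8, at 115 of 141 bases (81.6%). By shared bases Marchf4 is thus nearest to the Golgi members, in which the 8 capital codons stand at the same distances from one another. Equal length does not set these members apart. The stretch of Marchf3 is also 138 bases long, and it shared 60 of 138 (43.5%) with Marchf4. Pairs of equal length were compared without gaps, while pairs of unequal length were aligned with gaps, which can raise the share. The 43.5% of Marchf3 and the 51.7% of Marchf8 are therefore not on the same measure and do not rank these members.

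Depth was 32863533 to 42318233 counts in wildtype and 29908965 to 32613549 counts in the knockout-labelled libraries, and all values below are CPM, counts scaled to the same library size, with TMM scaling. Prox1 itself goes against the label. It had 109, 114, 106 and 115 CPM in wildtype libraries 1 to 4 and 147, 137, 138 and 133 CPM in libraries 1 to 4 labelled knockout. By edgeR's quasi-likelihood fit over all genes it rose by 0.33 ± 0.05 (log2, SE; adjusted p = 0.0298). The whole gene was counted, so these values cannot tell if the floxed segment is missing, and directions below are those of the libraries as labelled. Markers of the organ of Corti were present: 9 of 9 hair cell and 9 of 9 supporting cell genes had counts in all 8 libraries. The listed macrophage, red cell, endothelial, neuronal, glial and mesenchyme genes did too, so their presence does not show how pure the dissection was.

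Marchf4 was the member whose values did not overlap between the groups. Its CPM values were 2.82, 3.38, 3.19 and 3.20 in wildtype libraries 1 to 4, from 109, 147, 109 and 107 counts. In libraries 1 to 4 labelled knockout they were 1.02, 1.01, 0.867 and 1.10, from 30, 34, 29 and 35 counts. The lowest wildtype library lay well above the highest library labelled knockout, and within each group the libraries were close together.

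The group means of Marchf4 were 3.15 ± 0.24 and 1.00 ± 0.098 CPM (SD over 4 libraries each), and wildtype over knockout-labelled gives a ratio of 3.15. The log2 fold change was -1.65 ± 0.16 (SE, 95% interval -2.01 to -1.30). As Marchf4 was selected on this difference, its interval is a description and does not have 95% coverage. Of the 19 genes called in the whole table, 3 had a lower log2 fold change. The spread of Marchf4 between libraries was no wider than counting alone gives: the coefficient of variation was 7.51% in wildtype, where counting error alone gives 9.21%, and 9.79% in the knockout-labelled libraries, where it gives 17.7%. In bulk tissue, fewer cells that express Marchf4 and less Marchf4 RNA per cell cannot be told apart.

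**Figure D1:**
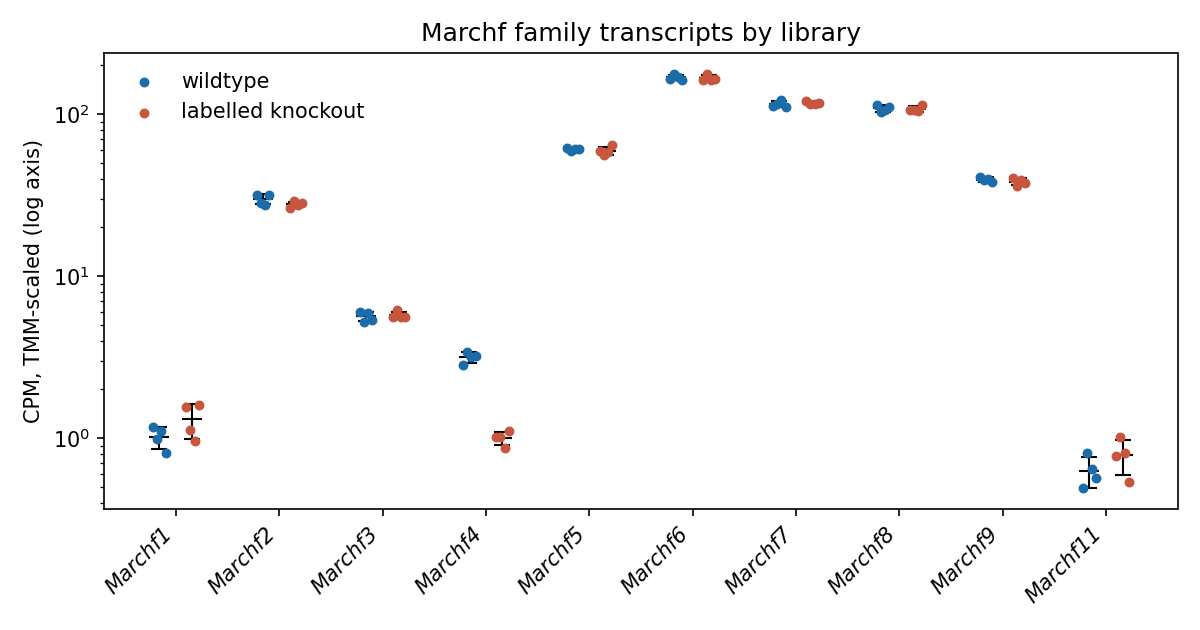
Expression of the 10 Marchf genes in CPM on a log axis, with a point per library (wildtype blue, labelled knockout red) and the mean with SD of 4 libraries in black. The groups are apart for Marchf4, at 2.82 to 3.38 against 0.867 to 1.10 CPM, and overlap for the other 9 genes.

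Across all tested genes, edgeR called 0.0583% lower and 0.034% higher at an adjusted p under 0.05. Of the 10 members, which all passed the low-count filter, 1 was called lower, namely Marchf4, and 0 were called higher. Since Marchf4 chose the family, nothing is read from that count. Of the other 9 members, 0 were called at an adjusted p and 0 at an unadjusted p under 0.05, where 7.55% of all tested genes lay. DESeq2 also called none of them. Their log2 fold changes ran from -0.11 to 0.36 with a median of -0.01, beside a median of 0.00 over all tested genes, and 4 lay above 0 and 5 below. Groups did not overlap for 3.69% of all tested genes, and for 0 of these 9.

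Marchf9, the Golgi ligase most like Marchf4 in sequence, had 40.8, 39.1, 40.0 and 38.0 CPM in wildtype libraries 1 to 4. It had 40.1, 36.0, 39.5 and 37.6 CPM in libraries 1 to 4 labelled knockout, so the groups overlapped. The log2 fold change was -0.04 ± 0.06 (SE; adjusted p = 0.822 by edgeR), with a 95% interval of -0.17 to 0.08. The ratio of Marchf9 to Marchf4 counts was 11.6 to 14.5 in wildtype and 34.0 to 45.5 in the knockout-labelled libraries. That ratio carries the same difference of Marchf4 by which the family was chosen.

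Marchf11, the other close relative, was measured from few counts. It had 0.491, 0.806, 0.644 and 0.568 CPM in wildtype libraries 1 to 4 and 0.780, 1.01, 0.808 and 0.536 CPM in those labelled knockout, from 17 to 35 counts per library. The log2 fold change was 0.32 ± 0.27 (SE; adjusted p = 0.736 by edgeR), with an interval of -0.27 to 0.90. The groups overlapped. A fall of the size seen in Marchf4 lies outside this interval, as do smaller falls beyond -0.27, while lesser falls and rises of up to 0.90 lie within it.

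Marchf1, which removes MHC class II from antigen-presenting cells, had 1.16, 0.990, 1.11 and 0.807 CPM in wildtype libraries 1 to 4. In the knockout-labelled libraries it had 1.56, 1.13, 0.957 and 1.61 CPM, with libraries 1 and 4 above every wildtype library and library 3 below the wildtype mean of 1.02. Its log2 fold change of 0.36 ± 0.23 (SE) did not pass (adjusted p = 0.682 by edgeR). Without library 4 labelled knockout, its log2 fold change was 0.25 and that of Marchf11 was 0.46. Marchf8, its broadly expressed relative, had 102 to 114 CPM (wildtype) and 104 to 114 CPM in the knockout-labelled libraries. Its log2 fold change was -0.02 ± 0.05 (95% interval -0.13 to 0.10), so its groups covered nearly the same range.

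The endosomal members also overlapped between the groups. Marchf2 had 27.6 to 31.7 CPM (wildtype) and 26.4 to 28.9 CPM in the knockout-labelled libraries, with a log2 fold change of -0.11 ± 0.07. This was the lowest among the 9 (adjusted p = 0.678 by edgeR; 95% interval -0.25 to 0.04). Marchf3 had 5.25 to 6.05 CPM (wildtype) and 5.58 to 6.18 CPM in the knockout-labelled libraries, a log2 fold change of 0.03 ± 0.11.

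Marchf5, Marchf6 and Marchf7 also had overlapping groups, in narrow ranges. Marchf5, which acts on mitochondrial fission and fusion proteins, had 59.4 to 61.7 CPM (wildtype) and 56.2 to 64.2 CPM in the knockout-labelled libraries (log2 fold change -0.03 ± 0.05). Marchf6, which takes part in ER-associated degradation and the control of sterol enzymes, had 163 to 178 CPM (wildtype) and 164 to 178 CPM (knockout-labelled), and a log2 fold change of -0.01 ± 0.05 (95% interval -0.12 to 0.10). Marchf7 had 111 to 122 CPM (wildtype) and 116 to 121 CPM in the knockout-labelled libraries, with 0.03 ± 0.05 (95% interval -0.07 to 0.13). Among protein-coding genes of GENCODE M21, Cpeb3 overlaps the span of Marchf5 on the opposite strand and Hnrnpm that of Marchf2 on its own strand. Genes of other types overlap further members, among them Gm49216 on the strand of Marchf6, Gm44237 on that of Marchf8 and Gm15345 opposite Marchf3. Counts of these members may share reads with the overlapping genes. None of Marchf5, Marchf6 and Marchf7 was called, with adjusted p from 0.865 to 0.965 by edgeR.

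**Figure D2:**
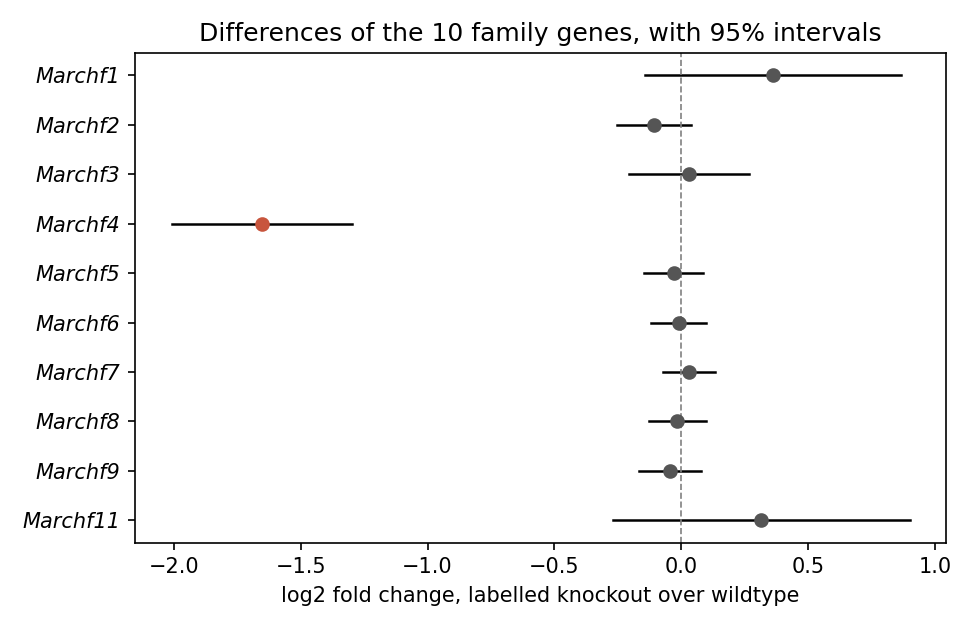
Log2 fold change of each family gene, labelled knockout over wildtype, with its 95% interval from the edgeR fit (lines); the dashed line marks 0. Marchf4, in red, lies at -1.65 (-2.01 to -1.30), and the intervals of the other 9 genes include 0. Marchf4 was selected on this difference, so its interval is a description.

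Per length of their exons, the members fell into a broad order that the wildtype libraries shared. Marchf7 led with 31.2 ± 1.30 CPM per kb of exon (SD, n = 4), followed by Marchf5 (29.2 ± 0.48), Marchf6 (27.0 ± 1.04), Marchf8 (19.9 ± 0.95), Marchf9 (13.0 ± 0.39), Marchf2 (5.15 ± 0.37) and Marchf3 (2.81 ± 0.19). Marchf4 stood eighth, at 0.691 ± 0.052 CPM per kb, above Marchf11 (0.223 ± 0.048) and Marchf1 (0.171 ± 0.027), whose ranges overlapped. The wildtype ranges of the other neighbours in this order did not overlap, but Marchf7 and Marchf5 changed places when the length of the longest coding transcript was used. In the knockout-labelled libraries, Marchf4 had 0.220 ± 0.021 CPM per kb, the lowest mean of the family beside Marchf1 at 0.220 ± 0.054, and the ranges of the pair overlapped.

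Marchf4 made up 0.526 to 0.634% of the summed CPM of the 10 genes in wildtype and 0.168 to 0.206% in the knockout-labelled libraries. Marchf6, Marchf7 and Marchf8 together held 73.0 to 74.3% and 74.1 to 75.4%. Without Marchf4 the sum was 522 to 534 CPM (wildtype) and 516 to 535 CPM in the knockout-labelled libraries, so the total of the other family transcripts covered nearly the same range in both groups.

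On the chromosome, the nearest tested neighbours of Marchf4 lay near 0. Smarcal1, an annealing helicase gene, had 51.4 ± 2.67 CPM (wildtype) and 51.6 ± 2.03 CPM in the knockout-labelled group (SD, 4 libraries each; log2 fold change 0.01 ± 0.06). Xrcc5, which encodes the Ku80 subunit of DNA end joining, had 55.2 ± 2.26 and 54.6 ± 0.97 CPM (log2 fold change -0.02 ± 0.05). Beyond them lay Tmem169 (-0.00 ± 0.26), the peroxisomal reductase gene Pecr (-0.05 ± 0.10), the ribosomal protein gene Rpl37a (-0.09 ± 0.06) and the IGF-binding protein gene Igfbp2 (-0.13 ± 0.08). None of the 6 was called, with adjusted p from 0.696 to 0.999 by edgeR. In the RefSeq annotation of GRCm38 the start of Marchf4 overlaps Smarcal1 by 465 bases on the opposite strand, and reads there cannot be assigned, as the sources used here do not say whether counting used strand. The span of Marchf4 also holds the processed pseudogene Gm15843.

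**Figure D3:**
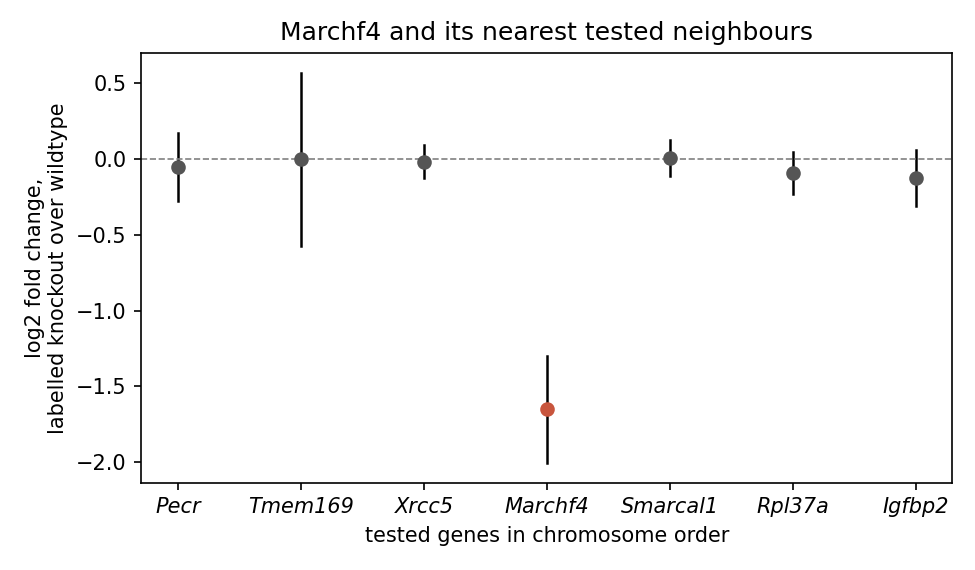
Log2 fold change with 95% interval (lines) of Marchf4 (red) and the 3 nearest tested genes on each side, in chromosome order; the dashed line marks 0. The 6 neighbours lie between -0.13 and 0.01, and Marchf4, which was selected on this difference, lies at -1.65.

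Over the 8 libraries, the 5 genes whose log2 CPM followed that of Marchf4 most closely, out of 17107 with a mean log2 CPM of at least 0, were Nr4a3 (Pearson r = 0.989), Pdzk1ip1 (0.979), the receptor tyrosine kinase gene Kit (0.976), Gm13782 (0.974) and Rab23 (0.966). These points share the 2 groups, and r was over 0.9 for 30 genes. Nr4a3, Pdzk1ip1 and Gm13782 are themselves among the genes called lower. Kit had 61.4 ± 1.22 CPM (wildtype) and 51.6 ± 1.35 CPM in the knockout-labelled libraries, and Rab23 had 27.9 ± 0.56 and 25.0 ± 0.39 CPM (SD, n = 4 per group), and neither was called (adjusted p = 0.125 and 0.602 by edgeR). With the group means taken off, r was over 0.9 for 36 genes, and the closest genes were others: Mapk12 (0.978), Mmut (0.975), Pcdhb5 (0.965), Esf1 (0.961) and Mthfd2 (0.960). The spread of Marchf4 within groups lay below its counting error, so these likenesses are no finding. Among the other members, r with Marchf4 after this step lay between -0.48 (Marchf9) and 0.42 (Marchf6).

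Genes linked to the ligases by function were compared from 6 lists, and 0 genes of any list were called in either direction, against the 0.0583% lower and 0.034% higher over all genes. Of 20 tested surface proteins reported as targets of membrane-bound MARCH ligases, 18 lay below 0 and 2 above, with a median log2 fold change of -0.10, beside 10290 of 20581 below 0 and a median of 0.00 over all tested genes. A lean below 0 is not particular to this list. In each list of cell type markers most tested genes lay below 0, from 6 of 10 (macrophage) to 7 of 7 (spiral ganglion neuron). Of the 4 Y-linked genes, 0 lay below 0. Unadjusted p was under 0.05 for 3 of the 20, beside 7.55% of all tested genes. These were Cdh1, and also Tfrc (-0.20 ± 0.09) and Cd81 (-0.15 ± 0.07), which are named after their values were seen. The groups did not overlap for 0 of the 20, beside 3.69% of all tested genes. The smallest p belonged to the adhesion gene Cdh1, E-cadherin, at -0.28 ± 0.09 (adjusted p = 0.581 by edgeR). Among targets of Marchf4 and Marchf9, the MHC class I heavy chain gene H2-K1 had -0.20 ± 0.16, the other heavy chain gene on the list, H2-D1, 0.10 ± 0.22, their light chain B2m -0.08 ± 0.09, Cd4 -0.03 ± 0.24, Icam1 -0.27 ± 0.18 and Alcam -0.09 ± 0.06; these examples were picked for their link to the pair with their values known. Transcript levels do not show the amount of these proteins at the surface, which is where the ligases act.

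The other 5 lists, of mitochondrial, ER and ubiquitin-transfer partners and of Golgi traffic, had medians nearer 0. Of 12 mitochondrial fission and fusion genes, 7 lay below 0 (median -0.03), with the smallest p for the protease gene Oma1 at 0.19 ± 0.10. Of 21 genes of ER-associated degradation and sterol control, 15 lay below 0 (median -0.06), with the smallest p for Vcp, the segregase ATPase, at -0.18 ± 0.08. Of 13 genes on a list of E2 enzymes and E2 variants, 9 lay below 0 (median -0.04), led by the variant Ube2v1 at -0.13 ± 0.06. Of 25 other transmembrane RING ligases, 18 lay below 0 (median -0.04), with Rnf144b at -0.26 ± 0.10. The 8 trans-Golgi and endosome SNARE genes were split 4 and 4 (median -0.00), and Stx6, a syntaxin of the trans-Golgi network, had -0.08 ± 0.05. The adjusted p of these 5 genes was 0.620 to 0.678 by edgeR. Unadjusted p was under 0.05 for 1 gene of the ER list, 2 genes of the E2 list and 2 RING ligases, and for 0 genes of the mitochondrial and SNARE lists. The groups did not overlap for 1 mitochondrial gene (Mief1, -0.06 ± 0.05), 1 E2 variant (Ube2v2, 0.12 ± 0.06) and 1 RING ligase (Rnf19a, -0.11 ± 0.05), which are named after their values were seen. They did not overlap for 0 genes of the ER and SNARE lists.

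**Figure D4:**
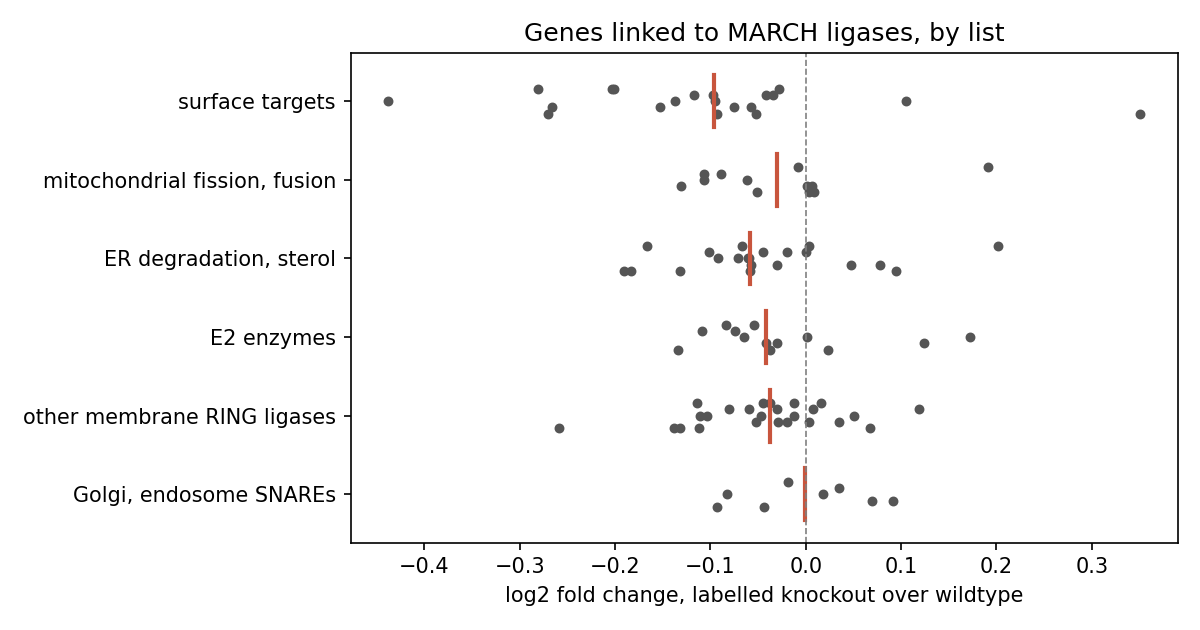
Log2 fold change of the tested genes of 6 lists linked to MARCH ligases (a point per gene, spread vertically for legibility), with each list's median as a red bar and 0 as a dashed line. The list medians lie between -0.10 and -0.00, and no gene lies beyond -0.44 or 0.35.

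Cell type markers that could move with Marchf4 were summed per library. The summed level of 6 of 6 mesenchyme genes was 5109 to 6272 CPM (wildtype) and 4327 to 5095 CPM in the knockout-labelled libraries, narrowly without overlap. The median log2 fold change of these genes was -0.15, and 0 of them were called. The summed stria and melanocyte markers (9 of 9 in the table, 7 tested, 2 at 0 in some library) were 24.0 to 99.7 and 19.9 to 27.1 CPM, with their median log2 fold change at -1.91 and none called. Wildtype library 4 held the 24.0 CPM, within the range of the knockout-labelled libraries, and had 3.20 CPM of Marchf4. This is a single library, singled out after its values were seen, and nothing is read from it. Macrophage markers, of a cell type in which Marchf1 acts, were all present (10 of 10) at 49.5 to 70.5 and 53.8 to 59.2 CPM. Red cell, endothelial, neuronal, glial, hair cell, supporting cell and greater epithelial ridge sums overlapped between the groups. The 4 Y-linked genes summed to 81.8 to 136 CPM (wildtype) and 126 to 160 CPM in the knockout-labelled libraries. The part of mesenchyme or of stria in the difference of Marchf4 was not tested. As a description, the log2 fold change of Marchf4 was -1.74 with the mean log2 CPM of the stria list as a covariate and -1.60 with that of the Y-linked genes. With the Y-linked genes Marchf4 did not meet the threshold on which it had been selected.

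In the authors' deposited table of the DESeq2 comparison, Marchf4 had a log2 fold change of -1.66 with a standard error of 0.21 and stood at rank 9 of all genes by p. Of the 19111 genes with an adjusted p in the authors' deposited table, 0.262% were called lower. For the other 9 members the authors' deposited table gives log2 fold changes from -0.11 (Marchf2) to 0.36 (Marchf1), with adjusted p from 0.761 to 0.977. It rests on the same 8 libraries, so it adds no further measurement.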

How the data were processed

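The 8 libraries of P0 organ of Corti were assigned to wildtype or knockout by their labelled genotype, and columns by the library names. Alignment with HISAT2 2.2.1 to GRCm39, trimming with cutadapt 4.3, read checks with FastQC 0.12.1, counting with featureCounts and a comparison with DESeq2 are named by the submitters' processing notes. The gene models, the use of strand and the handling of multi-mapping reads were not given in the sources used here. Raw counts of reads by gene were deposited, per the file headers. The deposited tables also hold group means and SDs of the counts and a normalized mean, signal columns that were not used. The authors' deposited DESeq2 table gives a log2 fold change with its standard error, a Wald score and p-values, raw and adjusted, per the file headers; its direction was read from the signs.

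Here, 20581 of 41079 genes passed edgeR's filterByExpr (minimum count 10), and the kept genes hold 99.9% of the counts. TMM scaling was used, and the contrast was tested with edgeR 4.0.16 (quasi-likelihood; R 4.3.3), genotype as the single factor, with Benjamini-Hochberg adjustment over all tested genes. SEs are the fold change over the square root of F, and intervals are 95%. No test was made over the members as a set. Similarity to Marchf4 used log2 CPM with a prior count of 2. Coding stretches and exon lengths come from GENCODE M21 (GRCm38), by symbol, which matched 10 of 10 members; neighbours come from RefSeq of GRCm38.p6. The fit, limma-voom (limma 3.58.1) and DESeq2 1.42.0 were tested on simulated data. Replicates differed by more than counting noise (lowest chi-square per degree of freedom 9.85). Alternatives were other scalings, filters, tools, covariates, thresholds, the replicate number as a block, and libraries left out.

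The members, gene lists, tests and alternatives were chosen with earlier results of these data known. Genes named are the members, Prox1 and Emx2, the gene with the smallest p of each list (or up to 3 called), the 3 nearest tested neighbours on each side, and the 5 most similar genes by each measure; other names are said to be chosen after their values were seen. Emx2 had 16.2 ± 1.61 CPM (wildtype) and 19.7 ± 2.39 CPM in the knockout-labelled group (SD, 4 libraries each) and was not called.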

Additional observations from a re-analysis of the deposited data

Results flagged for a closer look

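In 2 of the 20 sets of 4 libraries (10 members in 2 groups), a single library stood apart by Dixon's criterion at the 95% level, which flags about 1 set in 20 by chance. Both concern library 2 labelled knockout, the highest of its group each time. Marchf3 had 6.18 CPM there and 5.58 to 5.63 CPM in the other 3 libraries of the group. Marchf6 had 178 CPM there and 164 to 166 CPM in the others. Wildtype library 2 also held the highest Marchf6 value of its group, at 178 CPM. Without library 2 labelled knockout, neither gene was called, and the log2 fold changes were -0.0078 for Marchf3 and -0.040 for Marchf6.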

How the results depend on the processing

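The log2 fold change of Marchf4 lay between -1.74 and -1.59 in 21 alternative fits, and between -1.70 and -1.59 with 1 library left out; as Marchf4 was selected on this contrast, these values are a description. With the Y-linked (sex) score as a covariate it had -1.60 and 0 members were called; the cause was not tested. The other 9 members were called in none of their 187 alternative values, of which 13, in 4 members, changed sign around 0. For Marchf6 these were 0.0045 with upper quartile scaling, 0.0028 with the stricter filter (50 counts in at least 4 libraries), 0.0052 with quality weights, 0.048 with the sex score, 0.015 without wildtype library 2, 0.00080 without library 1 labelled knockout and 0.0044 with library totals alone, a scaling added after the data were seen. For Marchf9 they were 0.0027 (sex score) and 0.025 (stria score). For Marchf8 they were 0.0099 without wildtype library 1 and 0.011 without wildtype libraries 1 and 3. For Marchf3 they were -0.0054 when wildtype library 2 was left out and -0.0078 for the same step with library 2 labelled knockout. With each library left out in turn, the ranges were 0.25 to 0.48 (Marchf1), -0.14 to -0.08 (Marchf2), -0.0078 to 0.065 (Marchf3), -0.07 to -0.0055 (Marchf5), -0.040 to 0.015 (Marchf6), 0.01 to 0.06 (Marchf7), -0.044 to 0.0099 (Marchf8), -0.07 to -0.02 (Marchf9) and 0.17 to 0.47 (Marchf11). With the sex score Marchf1 had 0.67 and Marchf11 0.65, and with the stria score they had 0.71 and 0.23. Over all genes, 19 were called, against 36 without a filter, 86 with DESeq2, 30 with quality weights in limma-voom, 5 with the sex score, 8 with the stria score, 9 without wildtype libraries 1 and 3, 10 at a threshold of 0.01 and 11 to 27 with 1 library left out. The low counts were 11 without wildtype library 1 or without library 1, 2 or 3 labelled knockout, and 12 without wildtype library 3. The labels do not say whether same-numbered libraries belong together. The correlation of their deviations from the group means was -0.28 to 0.21, which cannot decide this with so few libraries. With the replicate block, 15 genes and 1 member were called, and Marchf4 had -1.65. Marchf1 and Marchf11 had 17 to 51 counts per library. The coefficient of variation, with that of counting alone in brackets, was 15.6% (16.2%) and 24.4% (15.5%) for Marchf1 in wildtype and knockout-labelled libraries, and 21.4% (20.5%) and 24.8% (19.9%) for Marchf11.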
